A study of Mus musculus with 60 samples.

Results

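Transcripts of the PPAR and RXR nuclear receptor genes were followed while C3H10T1/2 cells, a mouse mesenchymal line, were driven toward adipocytes. The members were Pparg, Ppara, Ppard, Rxra, Rxrb and Rxrg, found by symbol in both deposited gene tables, 6 of 24982 genes in each. Polyadenylated RNA had been sequenced in 60 libraries, 20 groups of 3. The first table held WT cells and cells labelled Tet1-KO (24 libraries), and the second held populations labelled 23-NC, 23-Tet1 and 23-CATA (36 libraries), each at days 0, 2, 4 and 6 of differentiation. Every population received the same medium: for the first 48 h after day 0 it contained 1 µM rosiglitazone, insulin at 10 µg/ml, dexamethasone at 1 µM, IBMX at 0.5 mM and T3 at 1 nM in 10% FBS, and from then on insulin at 5 µg/ml. Rosiglitazone is a synthetic ligand of PPARγ, so every group sampled after day 0, WT and 23-NC included, had been exposed to a drug that acts on a receptor described here. The labels do not explain the terms 23, NC and CATA, or say whether a population is 1 clone. For 11 samples of 23-Tet1 the genotype tag differed from the title, and the title was used.

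PPARs are ligand-activated transcription factors that bind fatty acids and their derivatives, and they bind DNA as heterodimers with an RXR. Pparg is the receptor required for fat cell formation, Ppara drives fatty acid oxidation in liver, brown fat and muscle, and Ppard is expressed in most tissues. Of the RXR genes, Rxra and Rxrb are widely expressed, whereas Rxrg is found mainly in muscle and brain. RXRs also pair with retinoic acid, thyroid hormone, vitamin D and liver X receptors, which therefore share them with the PPARs.

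The members lie on the plus strand of the mouse genome (mm10, GENCODE M21). Pparg spans chr6:115360951-115490399, Ppara chr15:85734983-85802819 and Ppard chr17:28232700-28301474. Rxra spans chr2:27676440-27762957, Rxrb chr17:34031812-34038399 and Rxrg chr1:167598384-167639623. The deposited values are per gene, so the transcripts that start at different Pparg promoters cannot be told apart, and reads shared between paralogs could move a value.

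Promoter sequences show how differently the members' starts are built. The windows below are the 250 bases before a RefSeq start (GRCm38.p6, plus strand), written 5′ to 3′, for the most upstream and the most downstream Pparg start and for the first start of Rxra, which had the highest mean of the RXR genes in every group except 23-Tet1 day 0, and of Rxrg, which was scarce. Capitals mark letters found on either strand. GGGCGG is the GC box. AGGTCA is the half-site of nuclear receptors. CCAAT is the box of that name. TTGCNNAA is the core of sites for the C/EBP factors.
Pparg, upstream start, chr6:115360894-115361143: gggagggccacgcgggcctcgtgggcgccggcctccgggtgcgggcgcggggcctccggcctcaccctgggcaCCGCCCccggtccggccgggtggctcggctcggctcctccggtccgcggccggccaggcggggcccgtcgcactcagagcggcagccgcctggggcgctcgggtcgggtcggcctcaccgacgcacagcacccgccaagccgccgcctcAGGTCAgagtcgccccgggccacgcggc
Pparg, downstream start, chr6:115421816-115422065: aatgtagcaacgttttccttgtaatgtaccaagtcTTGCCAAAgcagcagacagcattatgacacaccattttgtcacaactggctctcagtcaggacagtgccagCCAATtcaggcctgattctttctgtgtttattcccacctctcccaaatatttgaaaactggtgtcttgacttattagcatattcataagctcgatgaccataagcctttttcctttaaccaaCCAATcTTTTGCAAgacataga
Rxra, first start, chr2:27676951-27677200: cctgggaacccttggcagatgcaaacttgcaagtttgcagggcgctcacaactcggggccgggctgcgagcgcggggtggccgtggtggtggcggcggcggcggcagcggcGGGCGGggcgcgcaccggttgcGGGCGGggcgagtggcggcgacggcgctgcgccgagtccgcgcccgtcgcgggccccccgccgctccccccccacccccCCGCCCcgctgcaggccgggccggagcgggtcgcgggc
Rxrg, first start, chr1:167598112-167598361: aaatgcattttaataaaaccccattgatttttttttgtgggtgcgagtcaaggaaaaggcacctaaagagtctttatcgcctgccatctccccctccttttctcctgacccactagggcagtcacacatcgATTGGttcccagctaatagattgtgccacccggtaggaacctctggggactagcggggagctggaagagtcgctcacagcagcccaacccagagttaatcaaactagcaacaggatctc
The upstream Pparg window held 38 CpG dinucleotides, 1 GC box and 1 half-site, and the downstream one held 2 CpG, 2 CCAAT boxes and 2 C/EBP matches. The Rxra window held 40 CpG and 3 GC boxes, and the Rxrg window 6 CpG and 1 CCAAT box. Of the starts not printed, the second of Rxra held 1 CpG, no GC box and 2 half-sites. The second of Rxrg held 7 CpG, 1 half-site and 1 C/EBP match. The middle start of Pparg held 12 CpG, 2 GC boxes, 1 half-site and 1 CCAAT box. The windows of Ppara and Ppard held 27 and 22 CpG and the 2 of Rxrb 31 and 39. Over 32851 windows of the same length the median was 6 CpG, 32.7% held a GC box, 14% a half-site, 33.8% a CCAAT box and 9.56% a C/EBP match. The DR1 element, a tandem repeat of the half-site that a PPAR with an RXR prefers, searched on both strands, occurred in 0.0335% of all windows and in none of the members'. These matches describe letters in a window and are not sites of binding.

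Levels are in FPKM, fragments scaled by transcript length and library size, which can be compared between genes, and means are ± SD with n = 3 libraries. Depth, estimated from the steps between the lowest values, was 12.25 to 19.05 M fragments (median 15.25) in 59 of 60 libraries. Tet1-KO day 6 replicate 2 stood apart: it gave no clear step and detected 11805 genes, where each other library of the first table detected 13837 to 14954, so the main results that use it are given with and without it. Tet1 itself was 0.88, 1.12 and 1.03 FPKM in WT day 0 and 0.26, 0.24 and 0.25 in Tet1-KO day 0, averaged 5.30 and 10.8 in 23-Tet1 and 23-CATA at day 0, and was at most 0.12 in 23-NC. The 8 adipocyte markers summed to 46.1 to 179 FPKM in WT day 0 and to 90249 to 109784 at day 4. At day 0, 6 of 8 mesenchymal progenitor markers averaged at least 1 FPKM in every population, and the 5 endothelial markers summed to at most 2.08 FPKM in any library. Changes are differences of mean log2(FPKM + 1) ± SE, printed relative to the median gene of those tested, on a scale that understates changes of scarce genes. That median was 0 to within 0.1 except in WT (−0.39, −0.52 and −0.29 at days 2, 4 and 6), Tet1-KO (−0.10, −0.29 and −0.38), 23-CATA (−0.16, −0.34 and −0.22) and 23-Tet1 at day 6 (−0.12), each against day 0, and between populations in Tet1-KO against WT (0.17 at day 2, −0.20 at day 6), in 23-CATA against 23-Tet1 (−0.16 at day 4) and in 23-CATA against 23-NC (0.11 at day 0). P-values are limma's for the change as fitted, adjusted by Benjamini-Hochberg over 11911 genes in the first table and 12231 in the second, and a call is an adjusted p under 0.05. Nothing in the labels says that replicates were separate cultures, so the p-values cover no more than the spread among these samples. In such bulk RNA, fewer cells of a type and less RNA per cell cannot be told apart.

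The WT time course asked how the receptor genes move in ordinary adipogenesis. Pparg was already present before induction and rose more than 3-fold by day 2. Its values were 36.4, 36.0 and 31.2 FPKM in the day 0 libraries, 104.5, 114 and 116 at day 2, 128, 124 and 130.1 at day 4, then 133, 95.6 and 129.6 at day 6. Every later library stood above every day 0 library, and the lowest of them was replicate 2 of day 6. The rises were 2.06 ± 0.33, 2.37 ± 0.33 and 2.04 ± 0.33 at days 2, 4 and 6 (adjusted p = 0.00025, 6.7e-05 and 0.00019). Ppard, the widely expressed PPAR, averaged 19.7 ± 1.07, 27.3 ± 0.458, 28.8 ± 2.61 and 28.9 ± 3.51 FPKM on the 4 days. Its later libraries, at 26.1 to 32.8 FPKM, all lay above the day 0 range of 18.5 to 20.4, but no day passed (adjusted p = 0.12, 0.069 and 0.08). Ppard passed on all 3 days once Tet1-KO day 6 replicate 2 was dropped from the fit (0.84, 1.04 and 0.81, adjusted p = 0.0028, 0.00071 and 0.00094). Dropping that library changes the estimated spread and not the WT values. With every library kept, Ppard passed on the same days under quantile normalisation (adjusted p = 0.00055, 6.3e-05 and 0.00042). Median-ratio scaling called them too (0.00045, 3.9e-05 and 0.0009), as did library weights (2.5e-06, 1.2e-07 and 1e-05). So did fitting the compared groups alone (0.00012, 0.00022 and 0.0016). Dropping the filter, adding a replicate block or a pseudocount of 0.1 FPKM gained no call. Ppara was near 0, with 0.13, 0.10 and 0.14 FPKM at day 6 as its highest WT values. It did not pass the filter on low values in either table, and its day 4 and day 6 libraries lay above all of day 0 (two-sided exact permutation test of 3 against 3, whose smallest possible p is 0.1, p = 0.1).

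Rxra, the main dimer partner of PPARγ, had an early peak in WT cells. Its values were 33.6, 38.8 and 40.6 FPKM at day 0, 124, 115 and 114 at day 2, 66.4, 72.1 and 76.0 at day 4, then 51.7, 53.7 and 56.8 at day 6. The 4 days did not overlap, with day 2 highest and day 0 lowest. Rxra rose by 2.02 ± 0.25 at day 2 and 1.42 ± 0.25 at day 4 (adjusted p = 1.8e-05 and 0.0036). At day 6 it stood 0.80 ± 0.25 higher (adjusted p = 0.089, or 0.031 without Tet1-KO day 6 replicate 2). Its day 6 change was called under quantile normalisation (0.027) and median-ratio scaling (0.0054). It was called with library weights (0.0012) and with the compared groups alone (0.00097) as well. Dropping the filter, adding a replicate block or a pseudocount of 0.1 FPKM did not bring a call. Rxrg was listed at 0 in the 3 day 0 libraries, at 0.46, 0.56 and 0.49 FPKM at day 2, at 2.11, 2.95 and 1.98 at day 4, and at 2.92, 1.63 and 2.82 at day 6. Its rise passed at days 4 and 6, by 2.25 ± 0.29 and 2.05 ± 0.29 (adjusted p = 3.3e-05 and 4.5e-05). At day 2 it did not (0.98 ± 0.29, but 0.59 as fitted, adjusted p = 0.086). The day 2 rise passed without Tet1-KO day 6 replicate 2 (0.0019) and with a pseudocount of 0.1 FPKM (0.0064). It also passed after quantile normalisation (0.027) and with library weights (1.5e-06). The highest Rxrg mean was still only 2.46 ± 0.718 FPKM. Rxrb did not pass on any day, with means of 24.99 ± 2.10, 30.4 ± 1.46, 25.7 ± 0.57 and 23.3 ± 1.65 FPKM. Its day 2 libraries all lay above day 0 (0.67 ± 0.33, but 0.27 as fitted, adjusted p = 0.49). That change passed after median-ratio scaling (adjusted p = 0.030), with library weights (0.0028) and with the compared groups alone (0.0084). The day 4 change passed after median-ratio scaling only (0.64, adjusted p = 0.048). Over all days limma's F-test called Pparg, Rxra and Rxrg, 3 of the 5 members tested, beside 77.6% of all genes. The tests of days 2, 4 and 6 called 2, 3 and 2 members, beside 62.1%, 67.3% and 56.6% of all genes, so a call by itself did not set the members apart.

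**Figure D1:**
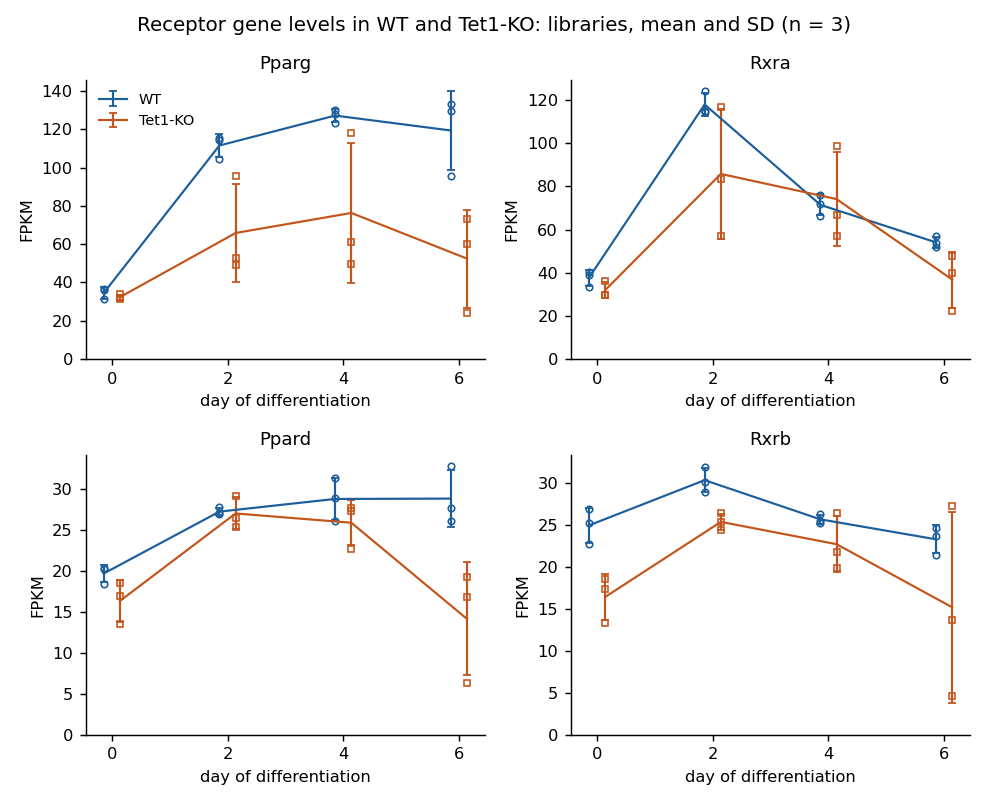
FPKM (vertical axis) of Pparg, Rxra, Ppard and Rxrb by day of differentiation (horizontal axis) in WT (blue circles) and Tet1-KO (orange squares). Open symbols are libraries, lines join means and bars are SD. Rxra of WT peaks at day 2 with 118 ± 5.54 FPKM, and Pparg of Tet1-KO spreads from 49.8 to 118 at day 4.

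In Tet1-KO cells the receptor genes rose less evenly between libraries. Pparg was 33.8, 31.5 and 31.7 FPKM at day 0, 53.0, 95.5 and 49.0 at day 2, 61.3, 118 and 49.8 at day 4, then 73.2, 23.9 and 60.3 at day 6. Replicate 2 was the highest at days 2 and 4, near the WT values, and the lowest at day 6. The adipocyte marker sum went the same way at days 2 and 4, with 48873 FPKM in replicate 2 against 8332 and 10614 at day 2, and 86591 against 40656 and 23400 at day 4. Pparg rose by 1.04 ± 0.33 at day 2 and 1.41 ± 0.33 at day 4 (adjusted p = 0.048 and 0.0099). Its day 6 change of 0.92 ± 0.33, but 0.54 as fitted, did not pass (adjusted p = 0.19). Without Tet1-KO day 6 replicate 2 the day 6 change was 1.2 and passed (adjusted p = 0.0075). It also passed after quantile normalisation (0.033) and median-ratio scaling (0.024), and with library weights (3.98e-07). The day 2 call was lost without Tet1-KO day 2 replicate 2 (0.67, adjusted p = 0.28), without any 1 of the day 0 libraries (0.094 to 0.11), with a replicate block (0.057), with no filter (0.071) and with a pseudocount of 0.1 FPKM (0.054). The day 4 call was lost without Tet1-KO day 4 replicate 2 (0.99, adjusted p = 0.083). Rxra was 29.9, 29.6 and 36.3 FPKM at day 0, 83.7, 117 and 56.8 at day 2, 98.6, 66.9 and 57.03 at day 4, then 40.0, 22.5 and 48.0 at day 6. All day 2 and day 4 libraries lay above day 0, and day 6 overlapped it. Rxra rose by 1.45 ± 0.25 at day 2 and 1.45 ± 0.25 at day 4 (adjusted p = 0.00088 and 0.001). Ppard went from 16.4 ± 2.53 FPKM to 27.1 ± 1.95 at day 2 and 25.9 ± 2.78 at day 4 (rises of 0.80 and 0.93, adjusted p = 0.049 and 0.042), and stood at 16.8, 6.32 and 19.4 at day 6. Its day 2 call was lost without any 1 of the 6 compared libraries (adjusted p = 0.063 to 0.17), with no filter (0.066) and with a pseudocount of 0.1 FPKM (0.062). Its day 4 call was lost with no filter (0.058) and without replicate 1 or 2 of day 0 (0.071 and 0.15) or of day 4 (0.10 and 0.11), while both were called without Tet1-KO day 6 replicate 2 (0.00029 and 0.00022). Rxrg was listed at 0 in all day 0 libraries and was 1.05, 1.46 and 0.94 FPKM at day 4, a rise of 1.39 ± 0.29 (adjusted p = 0.0046). At day 6 it was 2.51 and 1.78 FPKM in replicates 1 and 3 and listed at 0 in replicate 2, and the rise was 1.48 ± 0.29 (adjusted p = 0.0061), and 1.83 without replicate 2 (2.2e-06). Ppara was at most 0.06 FPKM. The F-test called 4 members, all but Rxrb (adjusted p = 0.0502) of the 5 tested, beside 63.4% of all genes, and 5 without Tet1-KO day 6 replicate 2. The tests of single days called 3, 4 and 1 members at days 2, 4 and 6, beside 22.5%, 46.8% and 45.6% of all genes.

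The comparison of Tet1-KO with WT asked where the receptor genes stood in the cells labelled Tet1-KO. Pparg, Ppard and Rxrb were lower in Tet1-KO at day 6, but only the first 2 were also called without the library that stood apart. Pparg averaged 52.5 ± 25.6 FPKM in Tet1-KO against 119 ± 20.7 in WT, with no overlap, and 66.7 (n = 2) without Tet1-KO day 6 replicate 2. Its change was −1.10 ± 0.33 (adjusted p = 0.0041), and −0.81 without that library (0.023). Ppard averaged 14.2 ± 6.91 against 28.9 ± 3.51 FPKM, a change of −0.91 ± 0.25 (adjusted p = 0.0016), and −0.64 without the library (0.0011). Rxrb was 13.7, 4.62 and 27.3 FPKM in Tet1-KO against 23.7, 21.5 and 24.7 in WT, so the highest Tet1-KO value exceeded all of WT. Its call (−0.68 ± 0.33, adjusted p = 0.04) was lost without replicate 2 (−0.25, adjusted p = 0.30). It was also lost without any 1 of the WT day 6 libraries (0.065 to 0.098). Rxra (−0.41 ± 0.25) and Rxrg (−0.48 ± 0.29) did not pass (adjusted p = 0.056 and 0.066), and single libraries moved both. Without Tet1-KO day 6 replicate 2 they were −0.29 and −0.12 (adjusted p = 0.29 and 0.57). Both passed without its replicate 1 (−0.41 and −0.74, adjusted p = 0.048 and 0.0053) and without its replicate 3 (−0.54 and −0.58, 0.013 and 0.028), and Rxrg without WT day 6 replicate 2 (−0.63, 0.043). When only the 2 compared groups were fitted, none of the 3 calls held (adjusted p = 0.10, 0.13 and 0.32 for Pparg, Ppard and Rxrb).

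No member was called between Tet1-KO and WT at days 0, 2 or 4, where 16.8%, 22.9% and 16% of all genes were, against 45.4% at day 6. At day 0 Pparg was nearly level, 32.3 ± 1.26 against 34.5 ± 2.89 FPKM (0.00 ± 0.33). At day 2 it was 65.9 ± 25.8 against 112 ± 6.09, with every Tet1-KO value under every WT value (−0.98 ± 0.33, adjusted p = 0.082), and at day 4 76.3 ± 36.5 against 127 ± 3.35, again without overlap (−0.92 ± 0.33, adjusted p = 0.094). These results turned on single libraries and on the processing. Without Tet1-KO day 6 replicate 2 in the shared fit, 7 calls stood in place of 3 over the 4 days: Pparg passed at days 2 and 4 (adjusted p = 0.015 and 0.017), Rxra at day 2 (−0.68, 0.049), Rxrg at day 4 (−0.72, 0.0047) and Rxrb at day 0 (−0.49, 0.015), beside Pparg and Ppard at day 6. That fit called more of all genes too, 3952, 4844, 3752 and 5181 of 11889 at days 0, 2, 4 and 6. The 7 calls therefore did not set the members apart. Pparg also passed without the same day's replicate 2, at day 2 (−1.35, adjusted p = 0.020) and at day 4 (−1.31, 0.011), as did Rxra at day 2 (0.029). With all libraries kept, Pparg passed at days 2 and 4 after median-ratio scaling (0.023 and 0.034) and with library weights (2.3e-06 and 5.2e-11). It passed with the compared groups alone at day 2 (0.042) and after quantile normalisation at day 4 (0.045). Median-ratio scaling also called Rxra at day 2 (0.030), and the compared groups alone called Rxrb at day 0 (0.0081). The day 6 change from day 0 did not pass a test of the difference between Tet1-KO and WT for any member (Pparg −1.12 ± 0.47, Ppard −0.75 ± 0.35, adjusted p = 0.079 and 0.10), where 17.8% of all genes did, nor without Tet1-KO day 6 replicate 2 (Pparg −0.81, Ppard −0.46, adjusted p = 0.15 and 0.13). That too turned on single libraries: Pparg and Ppard passed without Tet1-KO day 6 replicate 1 (−1.32 and −0.83, adjusted p = 0.021 and 0.041) and without its replicate 3 (−1.21 and −0.95, 0.046 and 0.019), and Rxrg without its replicate 1 (−0.83, 0.045). Ppard also passed after median-ratio scaling (0.049) and quantile normalisation (0.041), and with library weights Pparg and Ppard did (0.0017 and 0.0022). Ppara was lower in Tet1-KO at day 6, at most 0.01 FPKM against 0.10 to 0.14 (exact permutation p = 0.1). Other cell markers moved with these values. At day 6 the adipocyte sum was 29382 to 34265 FPKM in Tet1-KO against 62630 to 67074 in WT. The mesenchymal progenitor sum was 319 to 1789 against 139 to 274, the smooth muscle sum 152 to 1126 against 65.3 to 97.5, and the cartilage and bone sum 34.95 to 100.2 against 5.67 to 14.4. The macrophage sum was 0.65 to 34.1 against 32.8 to 46.1, with overlap. In Tet1-KO day 6, 6 of 8 progenitor, 4 of 6 smooth muscle, 4 of 7 cartilage and bone and 2 of 6 macrophage markers averaged at least 1 FPKM. Their part in the result was not tested.

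The second table asked how the receptor genes behave where Tet1 transcripts are raised, beside 23-NC. In 23-NC, Pparg climbed to day 4 and stood lower at day 6. It was 19.7, 15.3 and 15.3 FPKM at day 0, 39.0, 42.2 and 42.0 at day 2, 81.1, 84.4 and 97.9 at day 4, then 50.9, 49.8 and 51.4 at day 6. The days did not overlap, and the step from day 4 to day 6 was not tested. The rises from day 0 were 1.32 ± 0.08, 2.42 ± 0.08 and 1.62 ± 0.08 (adjusted p = 1.2e-14, 1.1e-21 and 3.7e-17). Rxra moved alongside, from 32.4, 34.1 and 33.6 FPKM to 69.2, 71.0 and 67.5 at day 2, 102, 101 and 90.1 at day 4, then 66.2, 65.8 and 62.9 at day 6. It rose by 1.1 ± 0.06, 1.61 ± 0.06 and 1.02 ± 0.06. Ppard went from 20.9, 21.2 and 19.4 FPKM to 50.5, 47.3 and 45.9 at day 6, its highest group in the table (1.26 ± 0.07, adjusted p = 7.1e-16). Rxrb rose by 0.33 ± 0.07 at day 6 (34.5 ± 2.85 against 28.8 ± 3.36 FPKM, adjusted p = 0.001), where the groups overlapped, and the call was lost with the 2 groups alone (0.069). Rxrg was at most 0.16 FPKM and Ppara at most 0.07 in any 23-NC library. The F-test called 4 of the 5 members tested, all but Rxrg, beside 87.9% of all genes, and days 2, 4 and 6 called 3, 3 and 4 beside 59.5%, 72.4% and 72.2%.

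In 23-Tet1, Pparg rose later and was highest at day 6. It was 16.5, 18.4 and 18.4 FPKM at day 0, 29.4, 26.7 and 27.7 at day 2, 58.9, 58.8 and 62.8 at day 4, then 93.6, 91.7 and 90.6 at day 6. The rises were 0.67 ± 0.08, 1.78 ± 0.08 and 2.43 ± 0.08 (adjusted p = 3e-08, 2.7e-18 and 8.4e-22). Rxra went from 20.1, 20.8 and 18.6 FPKM to 74.4, 82.3 and 73.2 at day 2, 102, 93.4 and 101 at day 4, then 77.4, 74.7 and 71.6 at day 6. Its rises of 1.94 ± 0.06, 2.34 ± 0.06 and 1.98 ± 0.06 started from a day 0 level below that of both other populations of the table. Ppard rose from 11.6 ± 0.881 FPKM to 23.9 ± 1.24, 27.0 ± 2.16 and 24.8 ± 1.48 (1.03, 1.23 and 1.15, each ± 0.07). Rxrb rose by 0.33 ± 0.07 at day 4 and 0.31 ± 0.07 at day 6 (adjusted p = 0.0011 and 0.0094). Rxrg was listed at 0 in every day 0 library and reached 0.64, 0.79 and 0.70 FPKM at day 6 (0.89 ± 0.09, adjusted p = 4.7e-09). Ppara was 0.17, 0.14 and 0.14 FPKM at day 6, above all of day 0 (exact permutation p = 0.1). The F-test called all 5 members tested beside 89.6% of all genes, and days 2, 4 and 6 called 3, 4 and 5 beside 64.4%, 71.5% and 77.6%.

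In 23-CATA, Pparg was high before induction. It was 63.0, 64.0 and 69.2 FPKM at day 0, 100.5, 109.7 and 121.6 at day 2, 137, 137 and 144 at day 4, then 149, 160 and 149 at day 6, so its day 0 libraries already exceeded every 23-NC library of day 6. The rises were 0.90 ± 0.08, 1.42 ± 0.08 and 1.43 ± 0.08 (adjusted p = 6.8e-10, 1.1e-13 and 1.2e-14). The adipocyte marker sum at day 0 was likewise 2312 to 2480 FPKM, against 22.6 to 26.4 in 23-NC and 6.46 to 22.0 in 23-Tet1, and its part in these levels was not tested. Rxra was 40.4, 44.0 and 41.9 FPKM at day 0, 65.8, 61.8 and 57.6 at day 2, 42.4, 41.6 and 40.6 at day 4, then 36.6, 34.5 and 32.6 at day 6. It rose by 0.70 ± 0.06 at day 2 (adjusted p = 2.5e-09), overlapped day 0 at day 4, and at day 6 lay below every day 0 library. That last change was −0.28 as fitted (adjusted p = 0.00011) and −0.06 ± 0.06 relative to the median gene, and it was not called after median-ratio scaling (−0.03, adjusted p = 0.56). Ppard varied little, from 23.3 ± 1.497 to 27.6 ± 1.87 FPKM at day 6 (0.46 ± 0.07, adjusted p = 0.0021). Rxrg was detected at day 0, with 0.09, 0.18 and 0.09 FPKM, and reached 0.60, 1.01 and 1.2 at day 4 and 1.04, 0.92 and 1.35 at day 6, a rise of 1.12 ± 0.09 on both days (adjusted p = 3.9e-09 and 2.3e-10). Ppara had its highest levels of the table here, 0.23, 0.29 and 0.18 FPKM at day 4 and 0.86, 0.81 and 0.95 at day 6, above all day 0 libraries (exact permutation p = 0.1). Rxrb was not called (25.5 ± 0.944 to 28.3 ± 0.226 FPKM). After median-ratio scaling it was called higher at days 2, 4 and 6 (0.28, 0.35 and 0.31, adjusted p = 0.0006, 2.8e-05 and 0.00021). The same scaling also called Rxra and Ppard higher at day 4 (0.37 and 0.48, adjusted p = 3.5e-06 and 3.2e-07). The F-test called 4 of the 5 members tested beside 91.3% of all genes, and days 2, 4 and 6 called 3, 2 and 4 beside 72.3%, 81.5% and 77%.

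**Figure D2:**
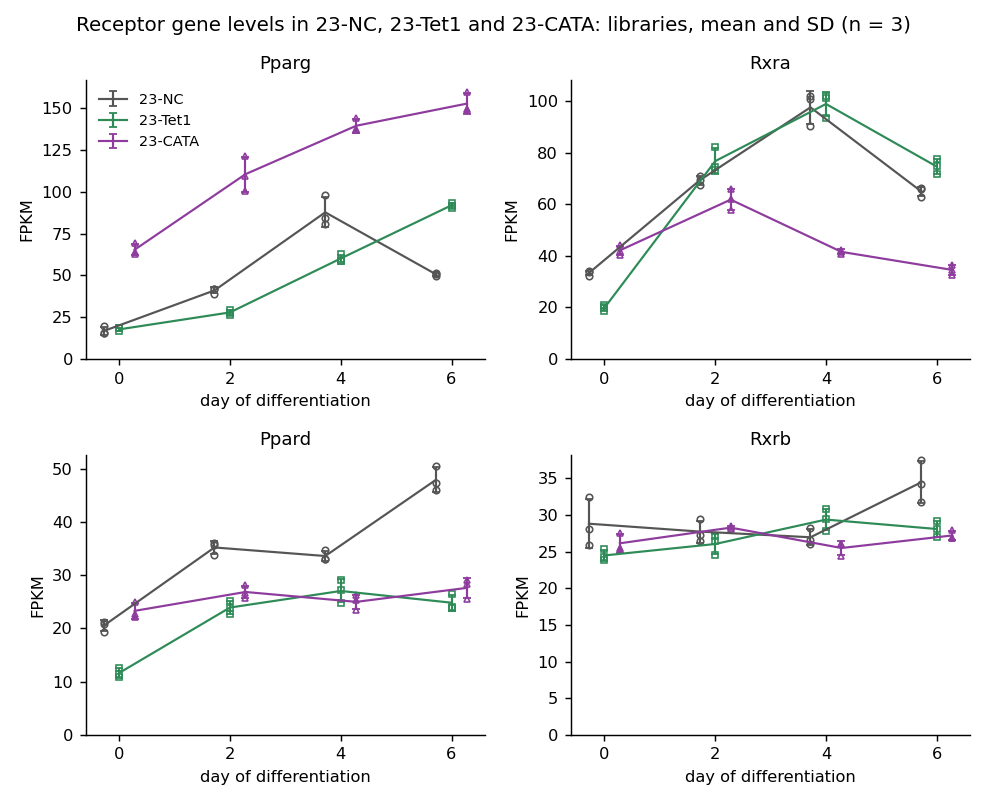
FPKM (vertical axis) of Pparg, Rxra, Ppard and Rxrb by day of differentiation (horizontal axis) in 23-NC (grey circles), 23-Tet1 (green squares) and 23-CATA (purple triangles). Open symbols are libraries, lines join means and bars are SD. Pparg of 23-CATA starts at 65.4 ± 3.32 FPKM, and Rxra of 23-CATA at day 6 lies at 32.6 to 36.6, below the other 2 populations.

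**Figure D3:**
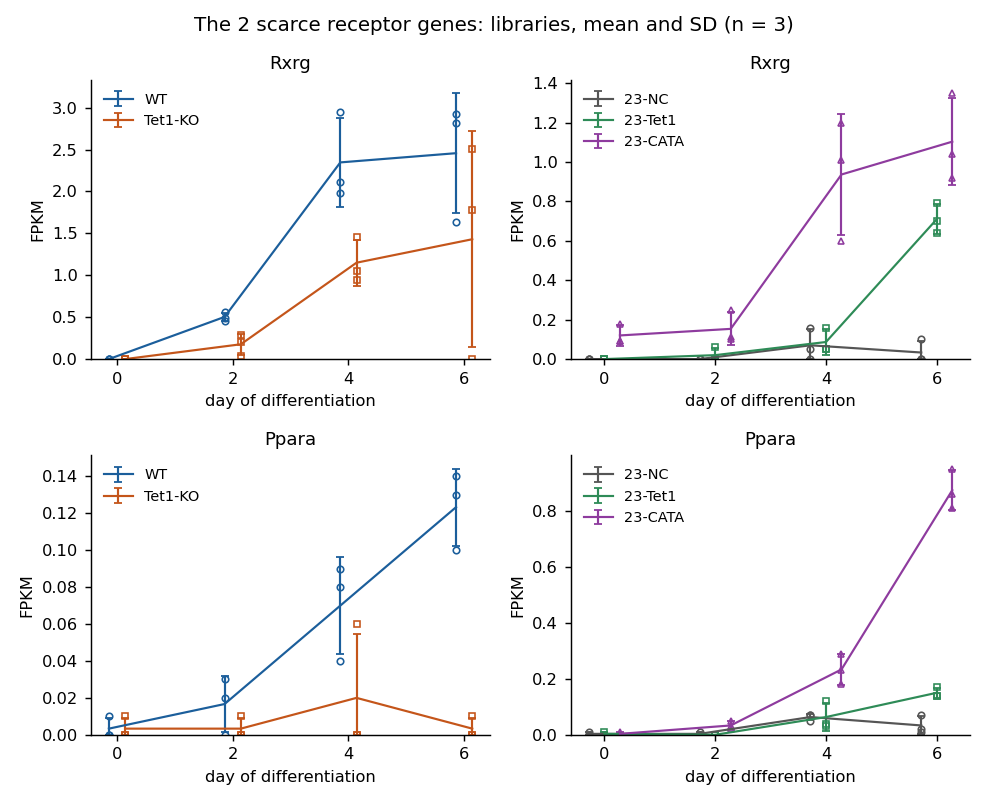
FPKM (vertical axis, a different range in each panel) of Rxrg and Ppara by day of differentiation (horizontal axis), with the first table at left and the second at right. Open symbols are libraries, lines join means, and bars are SD, drawn down to 0 at most. Rxrg stays at or below 0.16 FPKM in 23-NC, and Ppara reaches 0.873 ± 0.0709 in 23-CATA at day 6.

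Between 23-Tet1 and 23-NC, the direction of Pparg turned over with time. The 2 were within their spread at day 0 (17.8 ± 1.07 against 16.8 ± 2.50 FPKM, −0.01 ± 0.08, adjusted p = 0.34), although without 23-NC day 0 replicate 1 a difference of 0.10 was called (0.017). Pparg was lower in 23-Tet1 at day 2 (27.9 ± 1.38 against 41.1 ± 1.81, −0.64 ± 0.08) and day 4 (60.2 ± 2.29 against 87.8 ± 8.92, −0.62 ± 0.08), with adjusted p = 4.3e-07 and 7.6e-07, and higher at day 6 (92.0 ± 1.52 against 50.7 ± 0.827, 0.80 ± 0.08, adjusted p = 7.8e-11). Ppard was lower in 23-Tet1 on all 4 days, by −0.86, −0.63, −0.39 and −0.97, each ± 0.07 (adjusted p of at most 0.00025). Its day 6 values of 23.9 to 26.5 FPKM lay below the 45.9 to 50.5 of 23-NC. Rxra started lower in 23-Tet1, with 19.8 ± 1.14 FPKM at day 0 against 33.3 ± 0.888 (−0.82 ± 0.06, adjusted p = 1.1e-11), and slightly higher at day 6, 74.6 ± 2.94 against 64.9 ± 1.81 (0.15 ± 0.06, adjusted p = 0.0048). Its day 2 call was for a change of 0.14 as fitted (adjusted p = 0.036), or 0.05 ± 0.06 relative to the median gene. The relative change turned negative without 23-Tet1 day 2 replicate 2. The call was lost without replicate 1 or 3 of 23-NC day 2 (0.069 and 0.11) and after median-ratio scaling (adjusted p = 0.68). Rxrb was lower at days 0 and 6 (−0.32 and −0.33, each ± 0.07, adjusted p = 0.0044 and 0.00039), the first of which was lost with the 2 groups alone (0.092) and without 23-NC day 0 replicate 1 (−0.23, 0.069). Rxrg was higher at day 6, 0.71 ± 0.0755 FPKM against at most 0.10 (0.68 ± 0.09, adjusted p = 3.3e-08). Over the 4 days 13 of 20 member tests were called, 3, 3, 2 and 5 by day, beside 61.3%, 63.9%, 56.9% and 65% of all genes.

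Between 23-CATA and 23-NC, whose libraries also served the previous comparison, Pparg was higher in 23-CATA on every day. The changes were 1.80, 1.38, 0.75 and 1.56, each ± 0.08, at days 0, 2, 4 and 6 (adjusted p of at most 8.6e-09), and no 23-CATA library overlapped 23-NC. Ppard was lower at days 2, 4 and 6, by −0.41, −0.33 and −0.79 (each ± 0.07). At day 0 its call was for 0.18 as fitted (adjusted p = 0.033), or 0.07 ± 0.07 relative to the median gene. That call was lost with the 2 groups alone (0.12), after median-ratio scaling (0.46), and without 23-NC replicate 3 or 23-CATA replicate 2 (0.14 and 0.18). Rxra was higher at day 0 (42.1 ± 1.84 against 33.3 ± 0.888 FPKM, 0.22 ± 0.06), lower at day 2 (61.8 ± 4.11 against 69.2 ± 1.75, −0.19 ± 0.06), and far lower at day 4 (41.5 ± 0.941 against 97.5 ± 6.43, −1.13 ± 0.06) and day 6 (34.5 ± 2.00 against 64.9 ± 1.81, −0.91 ± 0.06), with adjusted p = 4.1e-05, 0.017, 6.3e-17 and 4.4e-14. The day 2 call was lost without 23-NC day 2 replicate 2 (−0.17, adjusted p = 0.061) and without 23-CATA day 2 replicate 3 (−0.14, 0.12). At days 4 and 6, then, Pparg stood above and Rxra below 23-NC in the same libraries. Rxrb was lower at day 6 (−0.34 ± 0.07, adjusted p = 5.2e-05). Rxrg was higher at days 4 and 6 (0.93 and 1.01, each ± 0.09), and at day 2 its difference of 0.18 ± 0.09 (adjusted p = 0.046) was lost after median-ratio scaling (0.055), without any 1 of the 23-NC libraries (0.083 to 0.084) and without 23-CATA replicate 3 (0.12, adjusted p = 0.21). Ppara lay above all 23-NC libraries at days 2, 4 and 6 (exact permutation p = 0.1). Calls numbered 16 of 20, with 3, 4, 4 and 5 by day, beside 43.3%, 65%, 68.7% and 74.4% of all genes.

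Between 23-CATA and 23-Tet1, the 2 populations with raised Tet1 transcripts, the receptor genes differed as well. Pparg was higher in 23-CATA on all days, by 1.82, 2.00, 1.36 and 0.73 (each ± 0.08, adjusted p of at most 2.4e-09), a gap that was smallest at day 6 (153 ± 6.04 against 92.0 ± 1.52 FPKM). Rxra was higher at day 0 (1.04 ± 0.06) and lower at days 2, 4 and 6 (−0.25, −1.07 and −1.08, each ± 0.06, adjusted p of at most 4.1e-05). Ppard was higher at day 0 (0.94 ± 0.07, adjusted p = 2.4e-13) and at day 2 (0.21 ± 0.07, 0.034). The day 2 call was lost with the 2 groups alone (0.061) and without replicate 1 or 3 of 23-Tet1 (0.071 and 0.14) or replicate 1 or 2 of 23-CATA (0.13 and 0.061). At day 6 its difference of 0.15 ± 0.07 did not pass (adjusted p = 0.052), but did with a replicate block (0.038), after median-ratio scaling (0.0048) and without 23-Tet1 replicate 1 or 23-CATA replicate 3 (0.20 and 0.21, adjusted p = 0.023 and 0.017). Rxrg was higher at days 4 and 6 (0.99 and 0.30, each ± 0.09, adjusted p = 2e-09 and 0.0049), and its day 6 call was lost without 23-CATA day 6 replicate 3 (0.22, adjusted p = 0.054) and with a pseudocount of 0.1 FPKM (0.15). Rxrb was called at day 4 for a change of −0.20 as fitted (adjusted p = 0.0082), which was −0.03 ± 0.07 relative to the median gene. After median-ratio scaling the relative change was 0.013 and was not called. Calls numbered 13 of 20, with 3, 3, 4 and 3 by day, beside 64.2%, 67.4%, 74.2% and 65.7% of all genes.

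**Figure D4:**
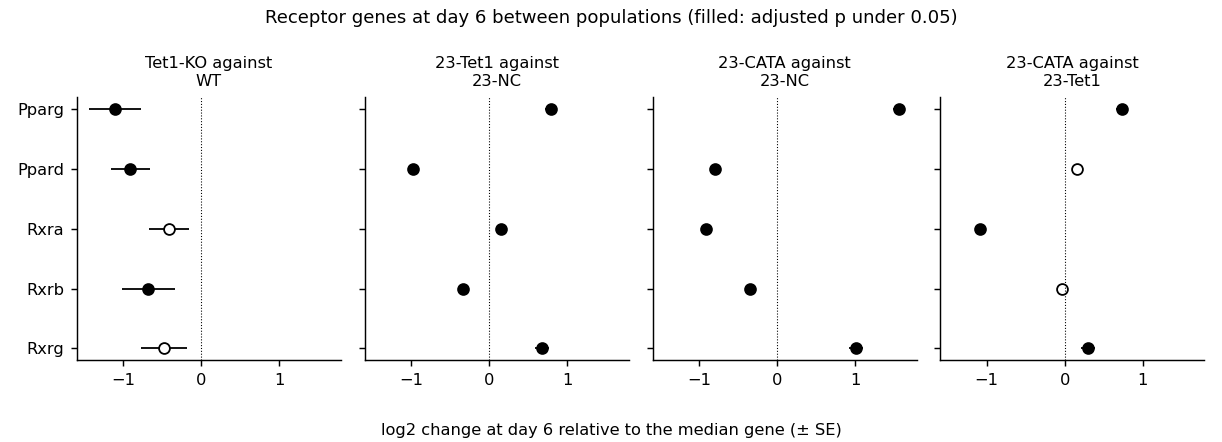
Difference in log2(FPKM + 1) at day 6, relative to the median gene (horizontal axis, ± SE), of the 5 members tested (vertical axis) in the 4 comparisons of populations. Filled points have an adjusted p under 0.05. Rxra lies at −0.91 in 23-CATA against 23-NC and at 0.15 in 23-Tet1 against 23-NC.

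Cell markers differed between these populations at day 6 too. The adipocyte sum was 10412 to 11815 FPKM in 23-NC, 50063 to 57929 in 23-Tet1 and 54202 to 55656 in 23-CATA, and the progenitor sum 288 to 346, 91.8 to 98.7 and 707 to 894. In the same order the smooth muscle sum was 106 to 111, 48.4 to 54.0 and 57.2 to 60.8 FPKM, the cartilage and bone sum 27.2 to 29.2, 17.1 to 19.9 and 16.2 to 19.4, and the macrophage sum 125 to 132, 74.7 to 78.7 and 76.6 to 86.3. In each population only 1 of 6 macrophage and 2 of 7 cartilage and bone markers averaged at least 1 FPKM. For progenitor markers it was 5, 5 and 6 of 8, and for smooth muscle markers 3, 4 and 3 of 6. The part of these markers in the receptor differences was not tested.

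The change from day 0 to day 6 itself differed between the populations of the second table. For Rxra it was larger in 23-Tet1 than in 23-NC by 0.96 ± 0.08 and smaller in 23-CATA than in 23-NC by −1.13 ± 0.08 and than in 23-Tet1 by −2.10 ± 0.08 (adjusted p = 1.3e-10, 2.9e-13 and 3.7e-19). For Pparg the difference was 0.80 ± 0.11 for 23-Tet1 against 23-NC and −1.06 ± 0.11 for 23-CATA against 23-Tet1 (adjusted p = 5.7e-07 and 5.6e-10). Its difference of −0.25 ± 0.11 for 23-CATA against 23-NC (0.0079) was lost after median-ratio scaling (−0.22, adjusted p = 0.11). Ppard rose less in 23-CATA than in the other 2 populations (−0.86 and −0.76, each ± 0.09), and Rxrg rose more in 23-Tet1 and 23-CATA than in 23-NC (0.77 and 0.95, each ± 0.13). These 10 calls stand beside 61.4%, 63.5% and 65.1% of all genes for 23-Tet1 against 23-NC, 23-CATA against 23-NC and 23-CATA against 23-Tet1.

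FPKM per length allow the make-up of each receptor family to be described, without a test. Pparg held most of the PPAR transcripts in WT cells, 63.6% of the summed PPAR FPKM at day 0 and 80.3%, 81.5% and 80.3% at days 2, 4 and 6. In 23-NC its share went from 44.9% to 72.2% at day 4 and was 51.4% at day 6, when Ppard held nearly all of the rest. In 23-CATA it was 73.7% at day 0 and 84.3% at day 6. Rxra held 60.1% of the summed RXR FPKM in WT day 0 and 79.3%, 71.8% and 67.7% later. In 23-Tet1 it held 44.7% at day 0, when Rxrb held 55.3% and exceeded Rxra in every library, and 74.6%, 77.0% and 72.1% later. Its share in 23-CATA was 61.6%, 68.4%, 61.1% and 54.9%, and at day 6 Rxra stood at 34.5 ± 2.00 FPKM and Rxrb at 27.2 ± 0.607. The level of Pparg relative to Rxra followed. In WT the ratio was 0.926 ± 0.157 and 0.948 ± 0.0936 at days 0 and 2, and 1.78 ± 0.125 and 2.21 ± 0.3996 at days 4 and 6. In Tet1-KO it was 1.09 ± 0.599 at day 4 and 1.38 ± 0.401 at day 6, with 1.54 (n = 2) there without replicate 2. In 23-NC the mean ratio was under 1 on every day and 0.781 ± 0.0324 at day 6, in 23-Tet1 it was 1.23 ± 0.0292, and in 23-CATA it went from 1.56 ± 0.0982 to 1.80 ± 0.293, 3.36 ± 0.173 and 4.44 ± 0.307. Summed over the 3 genes of each family, PPAR over RXR went from 0.872 to 1.85 in WT, from 1.01 to 1.25 in Tet1-KO (where replicates 1, 2 and 3 of day 6 gave 1.6, 1.11 and 1.03), from 0.599 to 0.993 in 23-NC, from 0.664 to 1.13 in 23-Tet1 and from 1.30 to 2.89 in 23-CATA between days 0 and 6.

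**Figure D5:**
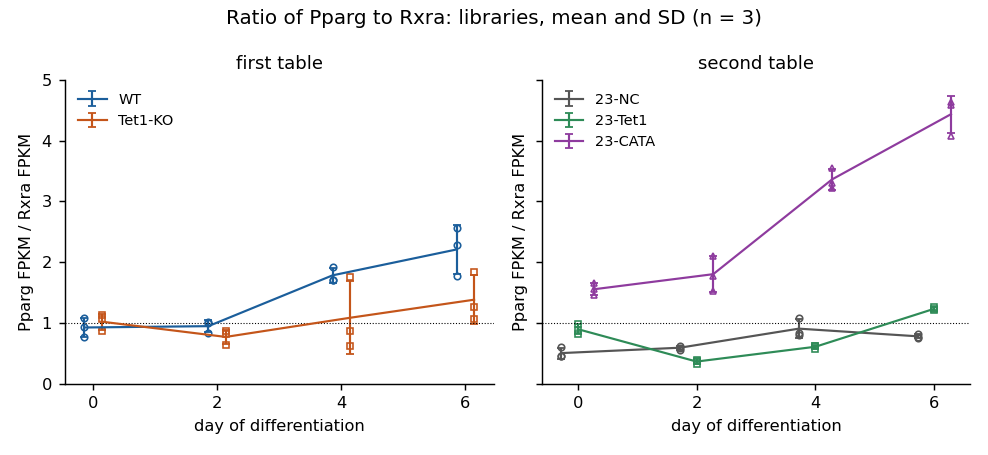
Ratio of Pparg to Rxra FPKM (vertical axis) by day of differentiation (horizontal axis) in the first table (left) and the second (right). Open symbols are libraries, lines join means, bars are SD, and the dotted line marks equal levels. In 23-CATA all libraries lie above 1 on every day and reach 4.44 ± 0.307 at day 6.

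Genes that PPARγ is known to switch on rose in WT and differed between the populations. In WT at day 4, 24 of 24 such targets tested rose against day 0 with a median of 7.13, beside 18.1% of all genes called higher and 49.2% lower. They included Fabp4 (the fat cell's fatty acid-binding protein, 10.89 ± 0.56), Cidec (a lipid droplet protein, 10.79 ± 0.64) and Gpd1 (a source of glycerol for triglycerides, 10.20 ± 0.82). In Tet1-KO against WT at day 6, 20 of 24 fell and none rose (median −2.11), beside 15.7% of all genes called higher and 29.7% lower. Without Tet1-KO day 6 replicate 2 it was 16 and 0 (median −1.70), beside 2791 of 11889 genes called lower and 2390 higher. The falls included Dgat2 (triglyceride synthesis, 21.4 ± 19.2 against 293 ± 76.3 FPKM), Pck1 (glyceroneogenesis, 2.17 ± 1.46 against 37.9 ± 3.47), Lpl (the lipoprotein lipase, −3.13) and Plin1 (the droplet coat perilipin, −2.02), while Fabp4 (−0.75, adjusted p = 0.17) and Cd36 (−0.42, 0.18) did not pass. Dgat2 (−3.34), Pck1 (−3.29), Lpl (−2.80) and Plin1 (−1.64) were also called without that library. In 23-Tet1 against 23-NC, 24 of 24 were higher at day 6 (median 2.35), beside 36% of all genes called higher and 29% lower. At days 0, 2 and 4, when Pparg was level or lower in 23-Tet1, the counts were 3 higher and 10 lower, 10 and 8, and 9 and 9. Of the 12231 genes tested, 4619 were called higher and 2874 lower, 4734 and 3083, and 4285 and 2677 on those days. The hormone gene Retn (265 ± 17.0 against 11.3 ± 2.30 FPKM) and the glycerol channel gene Aqp7 (28.1 ± 0.325 against 0.677 ± 0.230) were among the largest at day 6. In 23-CATA against 23-NC, 23, 24, 23 and 24 of 24 were higher at days 0, 2, 4 and 6. At day 6 the median was 2.89, beside 38% of all genes called higher and 36.4% lower. At days 0, 2 and 4, 3867, 4198 and 3529 of 12231 genes were called higher, and 1428, 3756 and 4879 lower. Cfd, which encodes adipsin, stood at 479 ± 19.5 against 1.35 ± 0.32 FPKM. Between 23-CATA and 23-Tet1 at day 6 the targets split, 15 higher and 4 lower (median 0.67), beside 31.9% and 33.8% of all genes. Lpl was higher in 23-CATA (1.70 ± 0.07) and the droplet genes Plin4 (−0.78 ± 0.08) and Cidec (−0.42 ± 0.09) lower.

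Known targets of PPARα and PPARδ, many of them in fatty acid oxidation, were read beside the scarce Ppara. In WT at day 4, 17 of 19 rose and 1 fell (median 2.73), beside 18.1% of all genes called higher and 49.2% lower. Acadm, which starts the oxidation of medium chains, rose by 4.71 ± 0.36, and the fall was of Cpt1a, the gate for long chains into mitochondria (3.32 ± 0.558 against 11.3 ± 1.63 FPKM). In Tet1-KO against WT at day 6, 15 of 19 fell and 1, Cpt1a, rose (median −0.87), with 11 and 1 without the library that stood apart and after median-ratio scaling. With all libraries and values as deposited, 15.7% of all genes were called higher there and 29.7% lower. The fit without that library called 2390 of 11889 genes higher and 2791 lower. After median-ratio scaling it was 2530 and 3053 of 11837. The peroxisomal Ehhadh (0.977 ± 1.15 against 13.2 ± 2.22 FPKM) was among the falls, and it was also called without that library (−2.74). In the second table at day 6, 19 of 23 were higher and 4 lower in 23-Tet1 and 18 and 2 in 23-CATA, each against 23-NC (medians 1.05 and 1.61). Of all genes, 36% were called higher and 29% lower in 23-Tet1, and 38% and 36.4% in 23-CATA. Pdk4, which restrains glucose oxidation, was lower in both (−0.95 ± 0.11 and −1.12 ± 0.11). Cpt1b, the muscle and brown fat counterpart of Cpt1a, stood at 5.92 ± 0.275 FPKM in 23-Tet1, 1.65 ± 0.225 in 23-NC and 52.4 ± 2.81 in 23-CATA. The direct test of 23-CATA against 23-Tet1 gave 2.95 ± 0.12 for Cpt1b (adjusted p = 8.3e-19).

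The median changes of the cofactor lists lay nearer to 0 than those of the targets in WT at day 4. Of 15 coactivators tested, 1 rose and 9 fell in WT at day 4 (median −0.48), and 3 rose and 7 fell after median-ratio scaling. Of all genes 18.1% rose and 49.2% fell there, so the falls lay near the background. The rise was of Ppargc1b, a coactivator of mitochondrial genes (8.27 ± 1.28 against 0.0967 ± 0.0416 FPKM). It was also higher in 23-Tet1 (1.51 ± 0.11) and 23-CATA (1.09 ± 0.11) than in 23-NC at day 6. Of 12 corepressors, 1 rose and 7 fell in WT at day 4, near the same share (4 and 4 after median-ratio scaling), and the rise was of Nrip1, which represses oxidative genes in fat (11.6 ± 0.866 against 3.84 ± 0.185 FPKM). Nrip1 at day 6 was 33.4 ± 1.66 FPKM in 23-Tet1 against 10.2 ± 1.48 in 23-NC and 11.3 ± 1.14 in 23-CATA. Ncor1, the nuclear receptor corepressor, was lower in Tet1-KO than in WT at day 6 (9.52 ± 1.70 against 23.2 ± 0.606 FPKM, −1.02 ± 0.15, and −1.10 without replicate 2 of Tet1-KO) and lower in 23-CATA than in 23-NC (−0.44, adjusted p = 0.011). In 23-CATA against 23-NC at day 6, 3 of 15 coactivators were higher and 9 lower (median −0.44), beside 38% and 36.4% of all genes, among the latter the acetyltransferase genes Ep300 (−0.99 ± 0.16) and Crebbp (−0.91 ± 0.17). In 23-Tet1 against 23-NC it was 3 and 5 (median −0.04), beside 36% and 29%.

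The other receptors that pair with RXR were read next. Nr1h3, the liver X receptor of fat and macrophages and a PPARγ target itself, went from 0.463 ± 0.0379 to 59.0 ± 6.94 FPKM in WT by day 4 (5.87 ± 0.29, adjusted p = 3.2e-11). At day 6 it was lower in Tet1-KO than in WT (15.4 ± 2.18 against 57.8 ± 5.32, also called without Tet1-KO replicate 2) and higher in 23-Tet1 (29.4 ± 1.25) and 23-CATA (34.7 ± 3.17) than in 23-NC (3.91 ± 0.726). Of the 8 partners tested in the first table, Nr1h3 was the 1 that rose in WT at day 4, and 5 fell, among them the retinoic acid receptor Rarg (−3.12 ± 0.52) and the vitamin D receptor Vdr (−2.01 ± 0.50), beside 18.1% of all genes higher and 49.2% lower. In 23-CATA at day 6, where Rxra was the lowest of the 3 populations, Vdr stood at 9.70 ± 0.398 FPKM against 58.6 ± 2.50 in 23-NC and the thyroid hormone receptor Thra at 74.6 ± 0.725 against 196 ± 9.54. Of 9 partners tested there 2 were higher and 6 lower, beside 38% and 36.4% of all genes. In 23-Tet1 it was 2 and 4, beside 36% and 29%.

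Known regulators of Pparg transcription were read in the same way. Cebpa, which sustains Pparg in fat cells, went from 21.6 ± 1.47 to 329 ± 36.3 FPKM in WT by day 4, and at day 6 was 51.6 ± 33.6 in Tet1-KO against 304 ± 21.4 in WT (−2.58 ± 0.62, adjusted p = 0.0015). In the second table it was 40.6 ± 3.95 in 23-NC, 149 ± 2.09 in 23-Tet1 and 304 ± 7.20 in 23-CATA at day 6, the order of Pparg. The early factors did not share that order: Cebpb was called higher in Tet1-KO than in WT at day 6 (1.25 ± 0.38, adjusted p = 0.031), which was lost without Tet1-KO day 6 replicate 2 (0.39, adjusted p = 0.22), and Cebpd was lower in 23-CATA than in 23-NC (−1.43 ± 0.12). Of 18 activators tested, 5 rose and 9 fell in WT at day 4, beside the 18.1% and 49.2% of all genes. In Tet1-KO against WT at day 6, 1 rose and 10 fell, beside 15.7% higher and 29.7% lower. Without replicate 2 of Tet1-KO it was 0 and 8, beside 2390 of 11889 genes higher and 2791 lower. Of 16 repressors, 3 rose and 11 fell in WT at day 4 (median −1.59, against the same 18.1% and 49.2%), including Sox9 (−4.74 ± 0.47), a cartilage factor, and Zfp521 (−2.73 ± 0.25), which holds back fat cell commitment. In Tet1-KO against WT at day 6, 8 rose and 4 fell (median 0.89), beside 15.7% of all genes higher and 29.7% lower. Sox9 (2.81 ± 0.47), the Notch target Hes1 (2.60 ± 0.52) and Nr2f1 (2.17 ± 0.32) were the largest rises. Without replicate 2 of Tet1-KO it was 8 and 5, beside the same 2390 and 2791 of 11889 genes. Sox9 was then at 2.05, Hes1 at 1.63 and Nr2f1 at 1.38, all 3 called, as was Cebpa (−2.19). In 23-Tet1 and 23-CATA against 23-NC, 4 and 2 of 17 repressors were higher and 9 and 10 lower, beside 36% and 38% of all genes higher and 29% and 36.4% lower. As a check on scale, of all calls in WT at day 4 26.9% were higher as deposited and 50.5% after median-ratio scaling, and in Tet1-KO against WT at day 6 34.6% and 45.3%.

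Genes whose levels ran most closely with a member were found by the correlation of log2(FPKM + 1) over the libraries of a table. It is a description, since the libraries share groups, days and depth. Over 24 libraries and 7719 genes, Mfsd12 (r = 0.976), Cebpa (0.974) and Atpaf2 (0.971) were nearest to Pparg, and 0.972, 0.977 and 0.972 without Tet1-KO day 6 replicate 2. Over the 36 libraries of the second table Cebpa (0.970), Pla2g16 (0.964) and Adig (0.963) were nearest, so Cebpa was among the 3 nearest in both. Rxra ran with Elac2 in the first table (0.955, or 0.948 without that library) and with the collagen genes Col4a1 (0.974) and Col6a3 (0.962) in the second. Ppard was nearest to Fbxw5 (0.973, or 0.937 without the library that stood apart) and in the second table to Pla2g15 (0.927). Rxrb was nearest to Man2c1 (0.967, or 0.90 without it), and in the second table, where it varied least, no gene exceeded Repin1 (0.754). Rxrg ran with Aldh3b2 in the first (0.959, or 0.958 without it) and with the adipocyte genes Thrsp (0.956) and Cidea (0.938) in the second. Between members, Pparg and Rxra gave 0.725 in the first table (0.676 without it) and 0.293 in the second, and Pparg and Rxrg 0.773 (0.761 without it) and 0.728.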

How the data were processed

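Polyadenylated RNA of C3H10T1/2 cells was measured in 60 libraries. Per the submitters' processing notes, the authors used STAR 2.4.1a, RSEM and the mm10 build. The deposited values are FPKM per gene in 2 tables, which the authors made and which were tested apart. No read counts were used here. Depth was estimated from the spacing of the lowest FPKM of genes with 1 transcript, and the absolute scale depends on a fitted fragment length. More fragments give smaller errors, so scarce genes are the least certain.

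Groups were taken from sample titles. A gene was tested where 3 or more libraries of its table reached 1 FPKM. Each table was fitted once, all its groups together, on log2(FPKM + 1), by limma 3.58.1 under R 4.3.3 with trended eBayes. Contrasts were each later day against day 0, population against population by day, and their day 6 interactions, with Benjamini-Hochberg adjustment over all genes tested and a threshold of 0.05. Ppara failed the filter and was compared by exact permutation tests. The fit was tested on simulated data. Python 3.11.15 served for the rest, with scipy 1.17.1, pandas 2.3.3, matplotlib 3.10.9 and numpy 2.4.6.

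The members and gene lists were chosen with earlier results of these data known. Named genes are the 6 members, Tet1, 18 fixed list genes, and up to 3 list members each way with the largest change, an adjusted p under 0.05, groups that do not overlap and 5 FPKM or more as the mean of the higher group. Genes most like a member are the 3 of highest r with a mean of 5 FPKM or more, leaving out predicted gene models. Some genes that these rules name are not reported here. As alternatives, values were scaled by median ratios or normalised by quantiles, libraries were weighted, the filter was dropped, the pseudocount was set to 0.1 FPKM, a replicate block was added, only the compared groups were fitted, and every library was left out once.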

Additional observations from a re-analysis of the deposited data

Results flagged for a closer look

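Among 23-NC, 23-Tet1 and 23-CATA, 10 receptor gene changes from day 0 to day 6 differed between populations, by limma's interaction test with Benjamini-Hochberg adjustment over all genes. The same test called 61.4% of all genes for 23-Tet1 against 23-NC. It called 63.5% for 23-CATA against 23-NC and 65.1% for 23-CATA against 23-Tet1. A call by itself therefore did not set the receptor genes apart. Each value is the difference in log2 change relative to the median gene. For 23-Tet1 against 23-NC it was 0.96 for Rxra, 0.80 for Pparg and 0.77 for Rxrg. For 23-CATA against 23-NC it was −1.13 for Rxra, −0.86 for Ppard, −0.25 for Pparg and 0.95 for Rxrg. For 23-CATA against 23-Tet1 it was −2.10 for Rxra, −1.06 for Pparg and −0.76 for Ppard. The first and second sets share the 23-NC libraries, and each population enters 2 of the 3 sets, so the values are not independent of one another. Pparg in 23-CATA against 23-NC was the weakest of them, with adjusted p = 0.0079, and was not called after median-ratio scaling (−0.22, adjusted p = 0.11).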

How the results depend on the processing

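Counts of receptor genes called over the days were 3 in WT, 4 in Tet1-KO, 4 in 23-NC, 5 in 23-Tet1 and 4 in 23-CATA. Leaving out single libraries gave 3 to 4, 3 to 5, 4, 5 and 4. The WT count became 5 with library weights and 5 with the compared groups alone, where that of Tet1-KO became 1. Tet1-KO against WT gave 3 calls over 4 days, 14 with library weights and 6 after median-ratio scaling. Leaving out 1 library gave 2 to 7 there: 6 without Tet1-KO day 2 replicate 2, 5 without day 4 replicate 2, and 5, 7 and 5 without day 6 replicates 1, 2 and 3. The other population pairs and the interactions kept their counts within 1.5 times under all alternatives run. Leaving out 1 library gave 12 to 13, 14 to 16 and 12 to 15 calls for 23-Tet1 against 23-NC, 23-CATA against 23-NC and 23-CATA against 23-Tet1, and 10 to 13 interactions.

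Of 2405 single-gene values, 10 had the opposite sign to the value as reported and were called in at least 1 of the 2 fits. With library weights these were Rxra in Tet1-KO against WT at day 4 (0.35), Pparg in 23-Tet1 against 23-NC at day 0 (0.064) and Rxrb in 23-CATA against 23-NC at day 4 (−0.089). After median-ratio scaling it was Rxrb in 23-CATA against 23-Tet1 at day 4 (0.013). Leaving out single libraries, Ppard and Rxrb of Tet1-KO day 6 against day 0 ran from −0.13 and −0.46 without replicate 3 of day 6 to 0.33 and 0.42 without its replicate 2. Rxrb of 23-NC day 4 against day 0 ran from −0.064 to 0.093, without day 0 replicates 3 and 1. Pparg of 23-Tet1 against 23-NC at day 0 ran from −0.063 to 0.10, without 23-NC replicates 2 and 1. Rxra of that pair at day 2 ran from −0.012 to 0.084, without 23-Tet1 replicates 2 and 1. Ppard of 23-CATA against 23-Tet1 at day 4 ran from −0.00061 to 0.10, without 23-Tet1 replicates 3 and 2. The cause was not tested.

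Over all genes, library weights raised the calls of Tet1-KO against WT from 2002 to 8763, 2733 to 7475 and 1907 to 9167 at days 0, 2 and 4, and of its interaction from 2115 to 6126. They raised those of Tet1-KO days 2 and 4 against day 0 from 2680 to 5568 and 5571 to 9821, and of 23-CATA against 23-NC at day 0 from 5295 to 8641. Without Tet1-KO day 6 replicate 2, the calls were 3952, 4844 and 3752 for Tet1-KO against WT at days 0, 2 and 4, and 4544 for Tet1-KO day 2 against day 0.

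Same-numbered libraries were checked as pairs in 31 comparisons. Their correlations lay between −0.468 and 0.420. All 3 pairs were above 0.1 in 1 comparison, 23-CATA against 23-NC at day 4, where the replicate block changed no receptor call. The block lost Pparg in Tet1-KO day 2 against day 0 (adjusted p = 0.057), gained Ppard in 23-CATA against 23-Tet1 at day 6 (0.038), brought Rxrb past the F-test in Tet1-KO (0.042) and changed no other call. Depth limits the readings of Ppara and Rxrg, which rest on few fragments.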

Other observations

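Genes that make or carry ligands of these receptors were not part of the comparisons above. In WT at day 4, Rbp7, a retinol-binding protein of fat, stood at 97.0 ± 21.2 FPKM against 0.24 ± 0.262 at day 0, and Retsat, a retinol saturase that PPARγ is known to switch on, at 89.9 ± 12.7 against 15.5 ± 1.16. Over the same days the prostaglandin synthase Ptgs2 fell by 2.66 ± 0.60 (limma adjusted p = 0.00012). At day 6 Retsat followed the order of Pparg in both tables, with 24.8 ± 16.3 in Tet1-KO against 90.3 ± 11.7 in WT, and 22.1 ± 2.78, 81.1 ± 2.54 and 187 ± 1.36 in 23-NC, 23-Tet1 and 23-CATA. Aldh1a1, which makes retinoic acid, ran the other way against WT and against 23-NC. It was 70.0 ± 56.3 FPKM in Tet1-KO against 2.60 ± 0.539 in WT (3.77 ± 0.74, adjusted p = 0.00086). It was lower in 23-Tet1 (5.05 ± 0.780) and 23-CATA (6.28 ± 0.318) than in 23-NC (29.9 ± 1.63), but its mean was not lowest in 23-CATA, where Pparg was highest. Without Tet1-KO day 6 replicate 2 both genes were also called against WT (Retsat −1.36 and Aldh1a1 2.87, adjusted p = 0.0014 and 0.0058). Ptgds, which makes prostaglandin D, stood at 8.93 ± 0.931 FPKM in 23-Tet1 and 0.377 ± 0.216 in 23-CATA. Of 14 such genes tested in the second table at day 6, 9 were higher and 3 lower in 23-Tet1 and 7 and 4 in 23-CATA, each against 23-NC. Beside them, 36% of all genes were called higher and 29% lower in 23-Tet1, and 38% and 36.4% in 23-CATA.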
